A study of Mus musculus with 28 samples.

Results

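The intermediate filament genes Gfap, Vim, Nes and Synm and the gene of their linker protein, Plec, were followed through single Müller glia cells (MGCs) of mouse retina. These 5 genes were chosen by name, of 18194 genes that the arrays measured with at least 1 probe set carrying a single gene symbol. Intermediate filaments are rope-like polymers that give a cell its mechanical strength. Vimentin and GFAP are type III filament proteins that can form filaments by themselves, whereas nestin and synemin are large type IV proteins that join a type III filament. Plectin ties filaments to each other, to actin and to the anchoring sites of the membrane. MGCs, the radial glia that span the retina, normally hold vimentin filaments, and the appearance of GFAP in them is the classical sign of gliosis, the reaction of glia to injury of the retina.

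Each array held the amplified cDNA of 1 cell that had been picked as an MGC from dissociated retina, and the question was how single MGCs respond to photoreceptor degeneration. Adult wildtype (adult WT) cells came from C57/BL6 mice labelled as older than 25 weeks, and 5 cells were measured. The paper took these cells from an earlier study of its authors and gives a younger minimum age for them than the label does. Rhod-ko mice, which have the rhodopsin gene deleted on the C57/BL6 background and lose their rods slowly, gave 5 cells at 8 weeks and 5 at 25 weeks. The rd1 mice, of the FVB strain with the Pde6b mutation and a fast loss of rods, gave 5 cells at postnatal day 13 (P13) and filled 5 arrays at 5 weeks, whereas the congenic FVB group, with wildtype Pde6b, consisted of 3 cells from P13. The 5-week rd1 arrays A5 and A6 correlated with r = 0.989, while none of the other 377 array pairs exceeded 0.764, so they were averaged as the same cell, which left 27 cells. No label ties a cell to an animal, so each condition counts as 1 sample and differences between conditions carry no p-value.

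Values are MAS 5.0 signals, a probe set's brightness on a linear scale after each array was brought to a trimmed mean of 500. A gene or probe set with a signal of 2000 or more was called on in that cell. Between 1847 and 3208 genes were on in a cell. Signals of a condition are listed in a fixed order of its cells: MG1, MG16, MG22, MG15 and MG3 for adult WT, cells 2, 1, 3, 7 and 8 for Rhod-ko at 8 weeks, A1 to A5 for Rhod-ko at 25 weeks, A3, A4 and A5 for congenic FVB, B4, A4, A1, B3 and B1 for rd1 at P13, and A1, A5/A6, B1 and A8 for rd1 at 5 weeks. The number of arrays limits the precision. Intervals for counts of cells are exact 95% binomial intervals, which cover counting error only. They treat cells as independent, although no label names their animal. Over all cells they pool the conditions, so the share depends on how many cells each condition gave.

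The labelled cell type was checked first. Of 22 MGC marker genes, 13 to 21 were on in 22 of the cells, with summed signals of 290227 to 1916232, and these cells had 1 to 5 of 18 vascular markers on. The other 5 cells went against their label: the 3 cells of congenic FVB and, from rd1 at P13, the cells A1 and B1 had 3 to 9 MGC markers on, with summed signals of 72058 to 116114, and 12 to 16 vascular markers. Summed vascular signals were 209240 to 346221 in these 5 cells and 9145 to 75637 in the others. Cldn5, a tight junction gene of endothelium, reached at least 23455 in each of the 5 cells. They are called vascular-rich cells here, and the P13 comparison therefore had no control cell with the MGC pattern. Rhod-ko 8 weeks cell 7 had 6 of 14 microglia and macrophage markers on, against 0 or 1 in every other cell. Rod markers were on at 5 to 10 of 13 in the P13 cells, at 8 and 7 in Rhod-ko 8 weeks cells 7 and 8, and at no more than 3 in the rest.

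Gfap lies at chr11:102887336-102897200, Vim at chr2:13574311-13582826, Nes at chr3:87971093-87980451, Plec at chr15:76170974-76231378 and Synm at chr7:67730161-67759742 in GRCm38.p6. RefSeq lists 4 transcripts for Gfap, 1 for Vim, 1 for Nes, 15 for Plec and 3 for Synm. The arrays read them with 3 probe sets each for Gfap, Vim, Nes and Plec and with 2 for Synm. The start regions of Vim, the member that was on in every cell, and of Gfap, a member that was on in some cells and not in others, are printed 5′ to 3′ from RefSeq. Each window runs from 250 bases before to 50 bases after the start site. Capitals mark the letters TATAAA, the core of a TATA box, in Vim and the letters TTCNNNGAA, the core of sites that STAT factors bind, in Gfap.

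Vim, chr2:13574061-13574360, plus strand: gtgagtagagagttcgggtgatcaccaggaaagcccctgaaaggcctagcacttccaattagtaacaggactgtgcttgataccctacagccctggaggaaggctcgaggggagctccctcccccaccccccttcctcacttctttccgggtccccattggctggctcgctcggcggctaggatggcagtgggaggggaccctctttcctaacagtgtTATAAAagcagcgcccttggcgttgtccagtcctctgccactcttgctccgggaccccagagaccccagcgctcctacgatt

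Gfap, chr11:102897151-102897450, minus strand: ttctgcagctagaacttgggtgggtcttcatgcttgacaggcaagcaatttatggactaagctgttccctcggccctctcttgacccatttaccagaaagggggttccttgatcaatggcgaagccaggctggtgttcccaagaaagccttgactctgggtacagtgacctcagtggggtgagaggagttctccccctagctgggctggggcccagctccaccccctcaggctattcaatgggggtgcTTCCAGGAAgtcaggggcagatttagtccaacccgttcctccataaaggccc

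Both motifs were searched on both strands, and their matches do not overlap. The match in Vim lay from -32 to -27 and the match in Gfap from -2 to 7, counted from the start site as 1 with no position 0. Neither motif was found in the windows of Nes and Synm. Of 32851 RefSeq start windows of this length, 13.6% held TATAAA and 8.3% held TTCNNNGAA. These matches describe letters and say nothing of binding in these cells.

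Vim was on in all 27 cells (interval 87.2% to 100%) and with all 3 of its probe sets, and its signal moved least of the 5 genes. The highest cell was 6.33 times the lowest, against 2809 times for Gfap, 1487 for Plec, 890 for Synm and 207 for Nes. In adult WT the signals were 111666, 29270, 75079, 42063 and 53431. Rhod-ko 8 weeks cells gave 70359, 40993, 35674, 18361 and 76920, and Rhod-ko 25 weeks cells 45861, 42560, 35977, 39121 and 37865. The Rhod-ko cells at 25 weeks were the most alike, within 1.27 times of each other, and every condition overlapped with its controls. Congenic FVB cells read 32886, 48945 and 44548, rd1 P13 cells read 36807, 30656, 39276, 35931 and 45794, and rd1 cells at 5 weeks read 17627, 50423, 107826 and 61671. The vascular-rich cells lay between 32886 and 48945, inside the range of the other cells, so Vim signal did not set them apart.

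**Figure D1:**
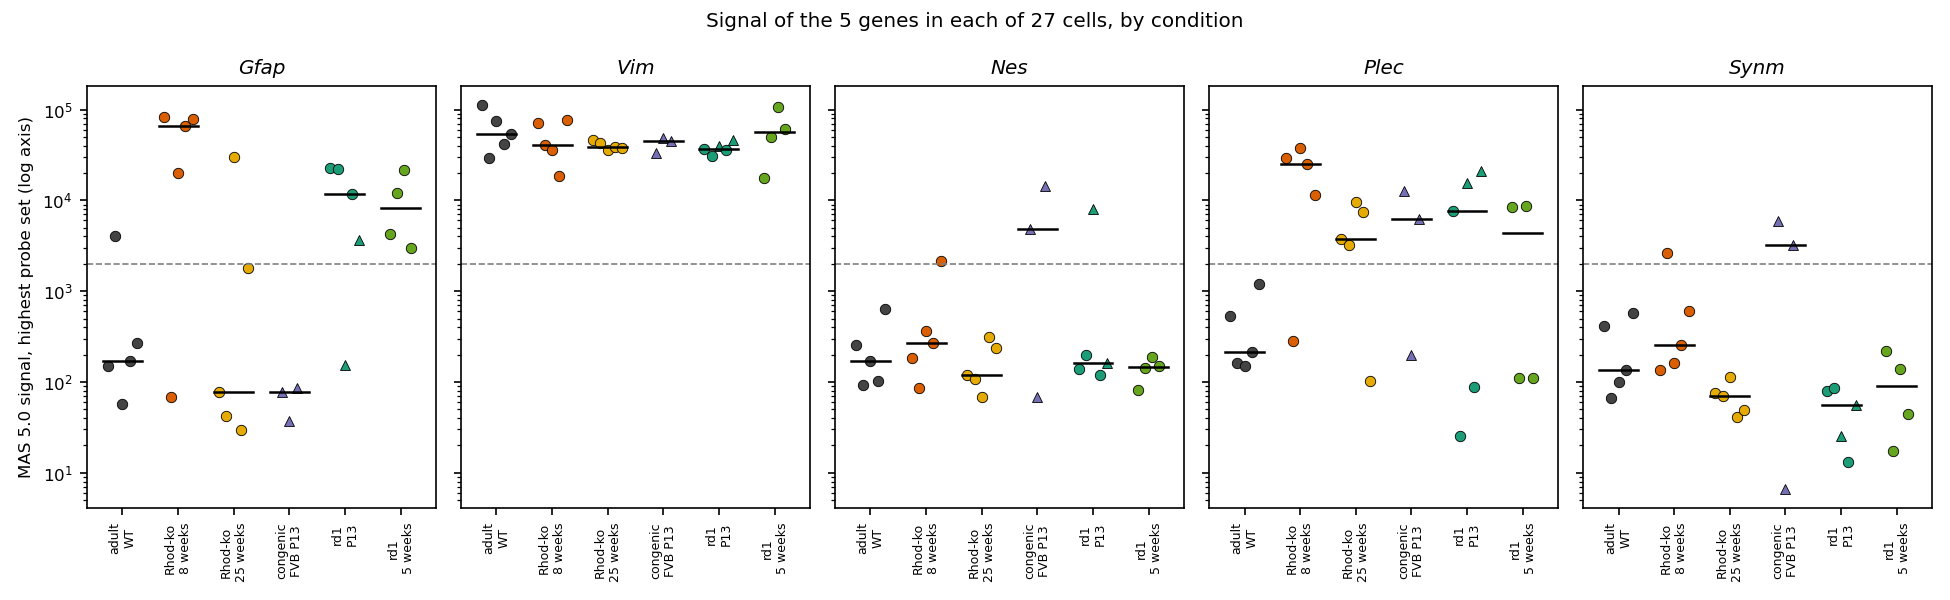
Signal of Gfap, Vim, Nes, Plec and Synm (highest probe set, MAS 5.0 signal, log axis) in each of 27 cells by condition; each point is 1 cell, triangles are the 5 vascular-rich cells, bars are group medians and the dashed line is a signal of 2000. Vim stayed at or above 17627 in every cell, while Gfap and Plec split into cells far above and far below the line.

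Gfap was on in 14 of 27 cells (interval 31.9% to 71.3%) when its highest probe set was taken in each cell. Adult WT signals were 152, 4047, 57.5, 172 and 267, so 1 of 5 cells was on. Rhod-ko 8 weeks cells gave 83415, 69.1, 20038, 66692 and 79269, and 4 of 5 were on. At 25 weeks the Rhod-ko cells gave 78.4, 41.8, 29918, 29.7 and 1803, with cell A3 on and cell A5 just under the threshold. The 2 Rhod-ko ages thus held opposite mixtures, a single negative cell at 8 weeks and a single positive one at 25 weeks, and a difference between the ages was not tested.

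Congenic FVB cells gave 77.8, 37.1 and 85.7, none on. In rd1 at P13 the signals were 22705, 22292, 153, 11717 and 3685, and the negative cell A1 was vascular-rich, as was B1, the lowest of the 4 positive cells. In rd1 at 5 weeks all 4 cells were on, at 4301, 12136, 21807 and 3004, which for 4 cells allows a share down to 39.8%. Positive cells in Rhod-ko at 8 weeks, at 20038 to 83415, overlapped with those in rd1 at both ages only at their lowest value.

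The 3 Gfap probe sets did not give the same count of positive cells. The probe set 1426508_at was on in 11 cells, 1426509_s_at in 13 and 1440142_s_at in 2. None of them was on in 13 cells, some but not all in 13, and all 3 in 1 cell, rd1 P13 cell B4. Each probe set therefore defined another set of Gfap-positive cells, and the call for a condition depended on which was read.

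The first pair, 1426508_at and 1426509_s_at, were designed from the same cDNA accession and mostly moved together. Over 27 cells, each read on its own array, their log2 signals floored at 500 correlated with r = 0.91 and rho = 0.92, which describes these cells only. Both were on in 11 cells and 1426509_s_at alone in 2, both in rd1 at 5 weeks. In cell A8 1426508_at read 211 and 1426509_s_at 3004. In the cell of arrays A5 and A6 1426508_at read 8.3 and 13.8 on the 2 arrays and 1426509_s_at 12071 and 12201. The second disagreement was thus present on both arrays of the same material, and the ratio of 1426509_s_at to 1426508_at came to 1098 there and 14.2 in A8.

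In the 11 cells with both on, the ratio ran from 0.547 to 3.15 with a median of 0.957. It was 0.724, 3.15, 2.59 and 2.71 in the 4 positive Rhod-ko 8 weeks cells and 0.932 in the Rhod-ko 25 weeks cell. In rd1 it was 0.957, 1.17, 0.788 and 0.547 at P13, and 0.887 and 1.58 in the other two cells at 5 weeks. A ratio above 2 with both on occurred in Rhod-ko 8 weeks cells 3, 7 and 8 alone. Cells A5/A6 and A8 of rd1 at 5 weeks were on by 1426509_s_at alone. The median difference of this group from adult WT was at least 1.05 on the log2 scale by 1426508_at and at least 2.77 by 1426509_s_at.

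A split call, with 1 probe set of a pair on and the other not, was not unusual on these arrays. Among 5219 pairs of probe sets that share a gene and an accession, at least 1 was on in 26290 cell values, and the other was not on in 73.3% of them and under 500 in 54.9%. For Gfap the share not on was 2 of 13 (15.4%), and for the Vim pair 1438118_x_at and 1456292_a_at it was 0. Of 1030 pairs with at least 1 on in 10 or more cells, the median share was 83.3% and 930 pairs (90.3%) had a share at or above that of Gfap. By this count of calls the Gfap pair was thus among the better matched pairs. The pairs were not matched for signal, and how often a ratio as large as 1098 occurs was not computed. The disagreement of the Gfap pair is described here without a cause.

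The probe set 1440142_s_at, from another accession, followed neither of the others, with r = 0.28 and 0.24. It was on in adult WT cell MG16 at 4047, where 1426508_at and 1426509_s_at were both under 40, and in rd1 P13 cell B4 at 4194. It alone made MG16 the single Gfap-positive cell of adult WT, and the other two probe sets found no positive adult WT cell. Values between 1499 and 1709 in Rhod-ko 8 weeks cell 2, Rhod-ko 25 weeks cell A3 and rd1 5 weeks cells A1 and A8 stayed under the threshold. Each of those 4 cells was on by another Gfap probe set, whereas Rhod-ko 8 weeks cells 3, 7 and 8 read 16.3, 60.9 and 19.5 beside 1426509_s_at signals of 20038 to 79269.

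**Figure D2:**
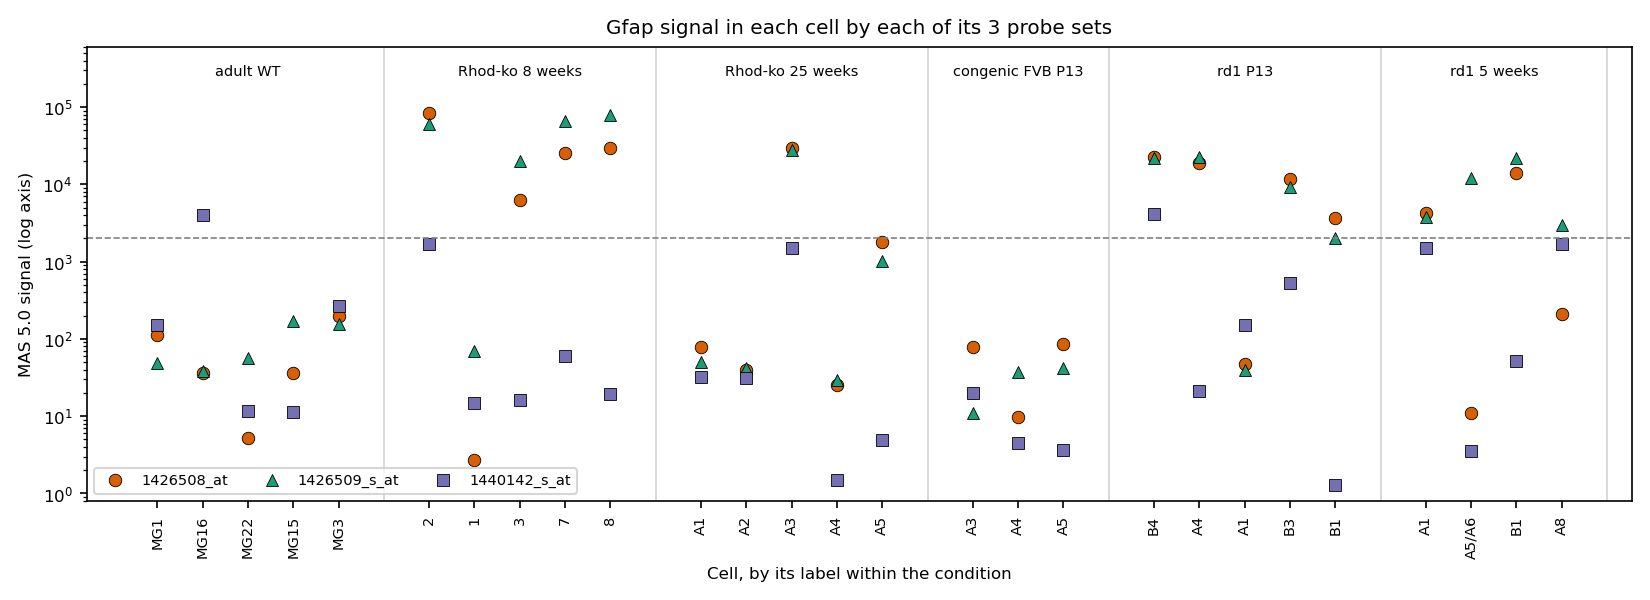
Signal of the 3 Gfap probe sets (MAS 5.0 signal, log axis) in each cell, ordered by condition, with the dashed line at 2000. In cells with either on, the circles (1426508_at) and triangles (1426509_s_at) lie within 3.15 times of each other except in rd1 5 weeks cells A5/A6 and A8, and the squares (1440142_s_at) pass the line in adult WT MG16 and rd1 P13 B4 alone.

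The Vim probe sets agreed on every call but not on the size of a difference. Probe set 1438118_x_at was the highest in all 27 cells, and 1456292_a_at, from the same accession, tracked it with r = 0.97. Probe set 1450641_at, from another accession, correlated with 1438118_x_at at r = 0.56. By 1438118_x_at the Rhod-ko 8 weeks median lay 0.38 below that of adult WT on the log2 scale (-0.38), by 1456292_a_at the difference was -0.19, and by 1450641_at it was -1.73, from a median of 20981 to one of 6325. The 1450641_at signals were 20981, 4194, 25046, 11161 and 25202 among adult WT cells and 12452, 6325, 6331, 2365 and 3427 among Rhod-ko 8 weeks cells, so the groups overlapped.

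The Vim ratio of 1450641_at to 1438118_x_at was 0.0446 to 0.177 in Rhod-ko at 8 weeks, 0.143 to 0.472 in adult WT and 0.252 to 0.508 in all the rest. The ratio of the 3′ to the 5′ Gapdh control signal, a measure of how far the copied cDNA reached, was 3.95 to 18.2 in these same Rhod-ko 8 weeks cells and 0.554 to 4.06 in the other 22 cells. The Plec ratio of 1434610_at to 1419835_s_at, in cells where either was on, was 0.00834 to 0.256 in Rhod-ko at 8 weeks and 0.312 to 0.485 elsewhere. The Plec ratios of the 4 positive Rhod-ko 8 weeks cells were thus below those of all other positive cells, whereas the Vim ratios of the group overlapped with adult WT and its Gapdh ratios with adult WT cell MG3. The part of cDNA length in the member values was not tested.

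**Figure D3:**
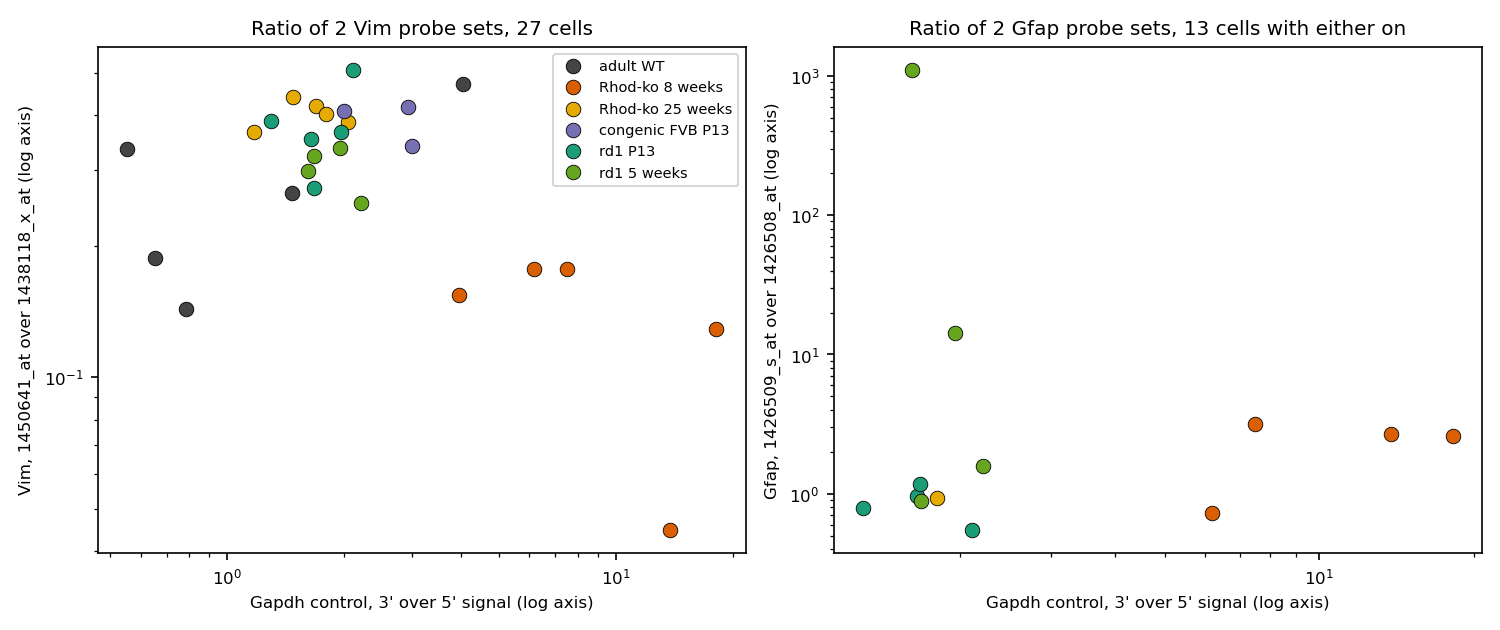
Ratio of the Vim probe sets 1450641_at and 1438118_x_at in 27 cells (left) and of the Gfap probe sets 1426509_s_at and 1426508_at in the 13 cells with either on (right), both on log axes, against the 3′ over 5′ signal ratio of the Gapdh control; points are cells by condition. Rhod-ko 8 weeks cells lie at Gapdh ratios of 3.95 to 18.2 and hold the lowest Vim ratio, 0.0446, while the highest Gfap ratio, 1098, is an rd1 5 weeks cell.

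Nes, the gene of a filament partner best known from progenitors and from growing vessels, was on in 4 of 27 cells (interval 4.19% to 33.7%). All 4 calls came from probe set 1449022_at, and 1418289_at and 1453997_a_at were on in no cell. Congenic FVB cells read 4844, 69.1 and 14241, rd1 P13 cells 139, 198, 7980, 120 and 162, and Rhod-ko 8 weeks cells 183, 84.9, 361, 266 and 2171. The 3 highest were vascular-rich cells with 16 of 18 vascular markers on, and the fourth, Rhod-ko 8 weeks cell 8, had 5. Among adult WT, Rhod-ko 25 weeks and rd1 5 weeks cells no signal exceeded 645. In the vascular-rich cells A4 of congenic FVB and B1 of rd1 P13 Nes stayed at 69.1 and 162, so 3 of 5 such cells were on.

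Synm was on in 3 cells (interval 2.35% to 29.2%): congenic FVB A3 at 5963 and A5 at 3188, and Rhod-ko 8 weeks cell 1 at 2607. Its probe sets were never on in the same cell, since 1455610_at called A3 and cell 1 and 1457275_at called A5. The third congenic cell, A4, read 6.7. No cell of adult WT, Rhod-ko at 25 weeks, rd1 at P13 or rd1 at 5 weeks was on, and the highest of those was 569 in adult WT. Rhod-ko 8 weeks cell 1 was also the one cell of its group without Gfap and without Plec.

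Plec was on in 15 of 27 cells (interval 35.3% to 74.5%), all of them by 1419835_s_at. Adult WT cells read 529, 163, 151, 215 and 1192, none on, and the last came from 1437554_at, which was on nowhere. Rhod-ko 8 weeks cells read 29456, 283, 37617, 24924 and 11525, and Rhod-ko 25 weeks cells 3718, 3258, 9659, 7512 and 103. In both Rhod-ko groups 4 of 5 cells were above every adult WT cell and 1 lay within the adult WT range or below it. The Rhod-ko 8 weeks positive cells, at 11525 to 37617, lay above the 25 weeks ones, at 3258 to 9659, in signals that were not tested against each other. By 1434610_at the same cells overlapped, at 246 to 5474 and at 1057 to 4360.

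At P13 the congenic FVB cells read 12820, 198 and 6261 for Plec and the rd1 cells 7688, 25.3, 15419, 89.2 and 21015. The highest rd1 values, 15419 and 21015, were those of the vascular-rich cells A1 and B1, and the other three rd1 cells had a single positive, B4. In rd1 at 5 weeks Plec read 8555 and 8670 in cells A1 and B1 and 112 in both A5/A6 and A8. The second probe set, 1434610_at, was on in 12 cells, never without 1419835_s_at, with r = 0.87 between them. In Rhod-ko 8 weeks cell 2 it read 246 beside 29456, and in Rhod-ko 25 weeks cells A1 and A2 it read 1265 and 1057 beside 3718 and 3258.

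Group medians were then compared on the log2 scale with signals under 1000 set to 1000, so that a median at this floor gives only a bound on the difference of medians, which does not hold for means, and a difference of 1 (2-fold) or more in either direction was counted. The pooled SD between the cells of the groups compared stands beside each difference. In Rhod-ko at 8 weeks the Gfap median was higher than that of adult WT by at least 6.06 (66.7-fold, SD 2.02) and the Plec median by at least 4.64 (24.9-fold, SD 1.52). Means of the floored log2 signals differed by less, 4.21 for Gfap and 3.61 for Plec, and the Gfap difference of medians fell to as little as 5.19 without cell 2, 7 or 8. Vim differed by -0.38 (SD 0.79), and the medians of Nes and Synm were under the floor in both. Thus 2 of 5 members were at least 2-fold higher, beside 6.17% of all 18194 genes, and 0 were lower, beside 5.12%. Of all genes, 14592 had both medians under the floor here, and 13206 to 14632 did across the comparisons. Such genes could not be counted, which lowers the shares given for all genes. With 5 members these counts describe the genes named and no more.

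In Rhod-ko at 25 weeks the Plec median was higher than that of adult WT by at least 1.89 (3.72-fold, SD 0.91). The medians of Gfap, Nes and Synm were under the floor in both, and Vim differed by -0.45 (SD 0.54), a difference that became 0.59 after quantile normalization. This made 1 of 5 members higher, beside 7.9% of all genes, and 0 lower, beside 3.7%. Plec was therefore above the adult WT median in a group whose Gfap median was not. The size of the Plec difference depended on the reading: at least 0.34 by 1434610_at alone and 0 by 1437554_at alone. With a floor of 2000 it was at least 0.89, under 2-fold.

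In rd1 at 5 weeks the Gfap median was higher than that of adult WT by at least 2.85 (7.22-fold, SD 1.10) and the Plec median by at least 1.55 (2.92-fold, SD 1.18). Vim differed by 0.06 (SD 0.91), and Nes and Synm were under the floor in both. The counts were 2 of 5 higher, beside 6.35% of all genes, and 0 lower, beside 4.25%. The Gfap difference was at least 2.10 without A5/A6 or without B1 and at least 3.60 without A1 or without A8. The Plec median of 4 cells lay between a pair at 112 and a pair of at least 8555, so that the difference was 0 without cell A1 or without cell B1, and at least 3.10 without A5/A6 or without A8. The comparisons with adult WT share its 5 cells, which the paper took from an earlier study, and the rd1 cells also differ from them in strain. By the labels the mutants at 5 and 8 weeks were also younger than adult WT. Genotype thus cannot be told apart from study in these comparisons, nor from age in those at 5 and 8 weeks.

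In rd1 at P13 the Gfap median was higher than that of congenic FVB by at least 3.55 (11.7-fold, SD 1.58), a difference of means of 2.88, and by at least 2.72 without rd1 cell B4 or without A4. Cell A1 was under the floor by every Gfap probe set, like the 3 congenic cells. The Nes median was lower, with a difference of -2.28 or below on the log2 scale (at least 4.84-fold, SD 1.56), and so was that of Synm, with -1.67 or below (at least 3.19-fold, SD 0.75). Means of the floored log2 signals differed by -1.44 for Nes and -1.42 for Synm. The Synm difference joined A3 read by 1455610_at with A5 read by 1457275_at, and was 0 by the first alone, -0.29 by the second alone and 0 with 1 probe set per gene. Plec differed by 0.30 (SD 2.05) and Vim by -0.28 (SD 0.24). The counts were 1 of 5 higher, beside 4.79% of all genes, and 2 lower, beside 6.41%. All 3 congenic cells and 2 of the 5 rd1 cells were vascular-rich, so that genotype and cell pattern cannot be told apart in this comparison. The Nes difference was -1.14 without congenic cell A5 and -3.05 without A4. Without congenic cell A3 the Synm difference shrank to -0.84 and Plec became 1.62 higher, and without A5 Plec also passed 2-fold. Without rd1 cell A1 or without B1, both vascular-rich, Plec turned lower than in congenic FVB, at -1.18.

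The members were then paired cell by cell. The most frequent combination was Gfap, Vim and Plec together, in 8 cells: Rhod-ko 8 weeks cells 2, 3 and 7, Rhod-ko 25 weeks A3, rd1 P13 B4 and B1, and rd1 5 weeks A1 and B1. Vim alone was on in 6 cells, 4 of them adult WT. Gfap and Vim without Plec were on in 5 cells, namely adult WT MG16, rd1 P13 A4 and B3, and rd1 5 weeks A5/A6 and A8. Vim and Plec without Gfap were on in 3 cells, all from Rhod-ko at 25 weeks. Vim, Nes, Plec and Synm were on together in congenic FVB A3 and A5, Vim, Nes and Plec in rd1 P13 A1, Vim and Synm in Rhod-ko 8 weeks cell 1, and Gfap, Vim, Nes and Plec in Rhod-ko 8 weeks cell 8.

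Gfap and Plec were both on in 9 cells, Gfap alone of the pair in 5, Plec alone in 6 and neither in 7. By condition the pattern was not uniform. All 4 Gfap-positive cells of Rhod-ko at 8 weeks had Plec, whereas 2 of 4 did in rd1 at P13, 2 of 4 in rd1 at 5 weeks, 1 of 1 in Rhod-ko at 25 weeks and 0 of 1 in adult WT. Correlation over 27 cells, on log2 signals floored at 500, was r = 0.39 (rho = 0.38), and over the 22 cells that were not vascular-rich it was 0.55 (rho = 0.56). Both describe cells that share 1 array type and amplification and fall into 6 conditions, so that differences between conditions are part of them.

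Gfap and Synm were never on in the same cell, and Gfap and Nes shared only Rhod-ko 8 weeks cell 8. Every Nes-positive cell had Plec, 4 of 4, while 11 of the 15 Plec-positive cells lacked Nes. Nes and Synm were both on in 2 cells, with r = 0.62 over 27 cells and 0.06 over the 22 cells without the vascular-rich ones. Vim correlated weakly with its partners, at r = -0.09 with Gfap and -0.17 with Plec. The partner genes therefore differed between cells in which Vim was always on.

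**Figure D4:**
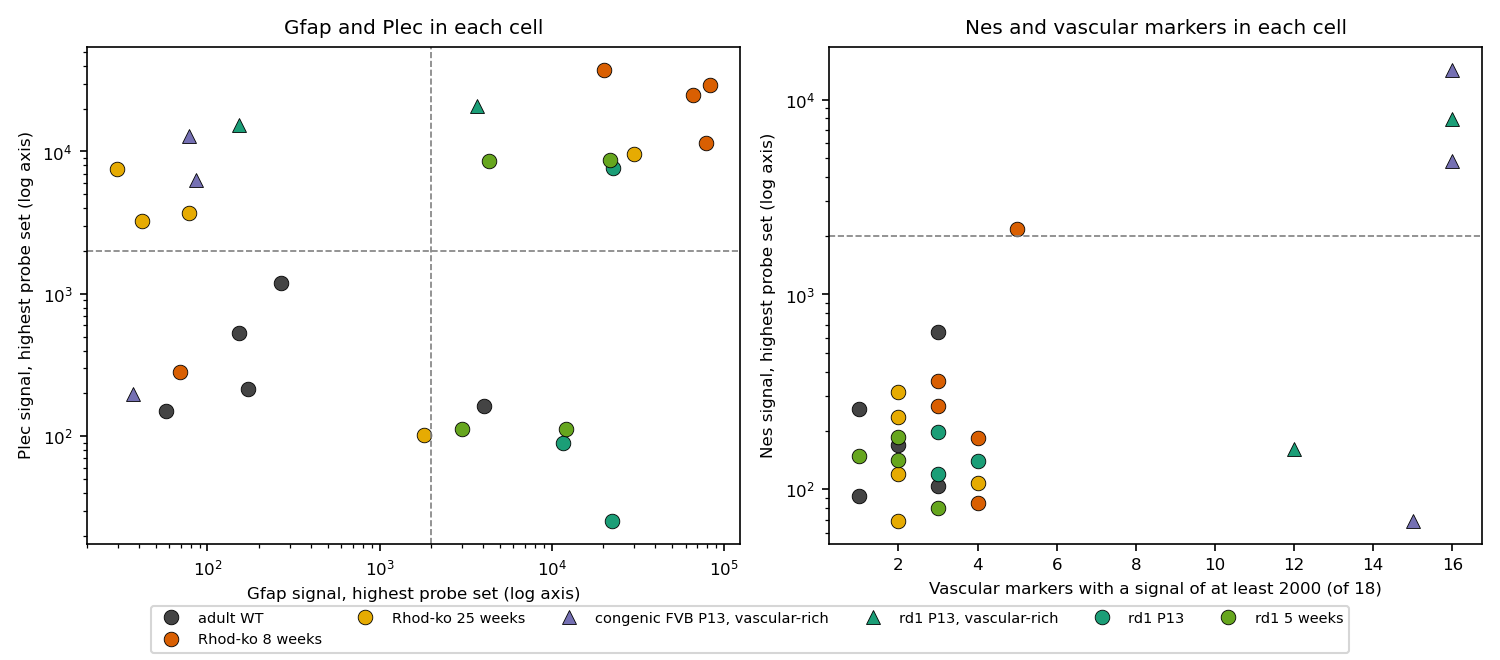
Left, Gfap against Plec signal in each of 27 cells (highest probe set, log axes, dashed lines at 2000); right, Nes signal (log axis) against the number of 18 vascular markers on; colours are conditions and triangles the vascular-rich cells. The upper right of the left panel holds the 9 cells with Gfap and Plec on, and 3 of the 4 Nes-positive cells have 16 vascular markers.

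The genes whose pattern over the 27 cells was most like each member were ranked by Pearson r among 6111 genes that were on in at least 4 cells. For Gfap they were Prpf19, a splicing factor gene (r = 0.69), Tmx1, of a membrane thioredoxin (0.69), Atp5e, of an ATP synthase subunit (0.68), Pea15a, of a phosphoprotein abundant in astrocytes (0.68), and Serpina3n, of a secreted protease inhibitor (0.68). Serpina3n was on in 13 cells, 10 of them with Gfap, and in no adult WT or congenic FVB cell. Prpf19 and Atp5e were on in all 14 Gfap-positive cells but also in 8 others. Plec ranked 297 and Vim 3817 on this list.

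The list for Gfap changed with its probe set. S100a6, of a calcium-binding protein, led for 1426508_at (r = 0.73), Serpina3n for 1426509_s_at (0.72) and Rgl1, of a Ras effector, for 1440142_s_at (0.78). S100a6 and Serpina3n were among the 5 leading genes of both 1426508_at and 1426509_s_at, and neither list shared a gene with that of 1440142_s_at. For Plec the leading gene was Furin, of a protease that matures secreted proteins (r = 0.83), followed by Rbck1 (0.71), Nme2, of a nucleotide kinase (0.68), Bckdha, of branched-chain amino acid breakdown (0.68), and A930005H10Rik (0.68). Furin was on in 10 cells, and Plec was on in each of them.

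For Nes the leading genes were Emcn, an endothelial gene and itself one of the vascular markers (r = 0.85), Wfdc1, Gimap6, Cr1l and Unc45b (0.84 to 0.85). Emcn was on in the 3 congenic FVB cells, at 2684 to 8336, and in 1 rd1 P13 cell, at 2827. For Synm they were Trub2 (0.76), Prcp (0.68), Emcn (0.66), Fli1 (0.65) and Lgals9 (0.64), and Nes ranked 10. For Vim, which varied little, they were Rps10 (0.64), Hmgxb3, Sumf1, 2900052N01Rik and Tk2 (0.61 to 0.63). For each of the 5 members, between 1 and 3 of its 5 genes were also among the leading 5 by Spearman's rho.

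Other genes of the filament system were read from lists of 71 genes, written from general knowledge. In Rhod-ko at 8 weeks 4 were higher and 14 lower, at 25 weeks 14 higher and 7 lower, in rd1 at 5 weeks 8 higher and 11 lower, and in rd1 at P13 6 higher and 7 lower. Of all genes, 1122 were higher (6.17%) and 931 lower (5.12%) in Rhod-ko at 8 weeks, and 1438 (7.9%) and 674 (3.7%) at 25 weeks. In rd1 they were 1156 (6.35%) and 774 (4.25%) at 5 weeks, and 872 (4.79%) and 1167 (6.41%) at P13. These shares stand beside the counts of each list below. The median difference of the 71 genes and that of all genes was 0 in each comparison, and both group medians were under the floor for 37 to 43 of the 71. That is a smaller part than among all genes, so more of the list genes could be counted. The lists are heterogeneous and are described by gene below. At P13 the congenic FVB cells were all vascular-rich, so genotype and cell pattern cannot be told apart for any list gene.

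The other type III and IV filament genes had medians that were mostly under the floor. Of 7, the neurofilament gene Nefl was the only one past 2-fold, by at least 2.61 on the log2 scale in Rhod-ko at 25 weeks and at least 1.87 in rd1 at 5 weeks. Of 8 keratin genes Krt18 was higher by at least 1.93 in Rhod-ko at 8 weeks and at least 1.58 in rd1 at P13, and Krt10 by at least 2.22 in rd1 at 5 weeks. Of 3 lamin genes, of the nuclear envelope, Lmna was lower in rd1 at P13, with a difference of -1.14 or below. Its median in the vascular-rich congenic cells was 2204.

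The plakins Macf1 and Dst, relatives of Plec that link filaments, microtubules and actin, went the other way from Plec against adult WT. Macf1 had a median of 19850 among adult WT cells and 3163 among Rhod-ko 8 weeks cells, a difference of -2.65, with -0.86 at 25 weeks and -1.12 in rd1 at 5 weeks. Dst differed by -1.34, -0.52 and -1.83 in the same order. Adult WT cells ran from 329 to 40542 for Macf1 and from 300 to 28604 for Dst, and overlapped with each of these groups. At P13 the differences from congenic FVB were -0.94 for Macf1 and 0.62 for Dst. Thus 2 of 6 plakin genes were lower in Rhod-ko at 8 weeks and in rd1 at 5 weeks, beside 5.12% and 4.25% of all genes. At 25 weeks and at P13 0 plakin genes were lower, beside 3.7% and 6.41%. These are long transcripts, and the Rhod-ko 8 weeks cells are those with the high Gapdh 3′ to 5′ ratios. The part of that was not tested.

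Among 15 anchors and partners, Dag1, of the dystroglycan that holds glial endfeet to the basal lamina, differed by -2.69 in Rhod-ko at 8 weeks, -1.32 at 25 weeks and -3.43 in rd1 at 5 weeks. Adult WT cells ran from 99.7 to 27834 for Dag1 and overlapped with each of these groups. Tln1, of the integrin linker talin, was higher by at least 3.51 in Rhod-ko at 8 weeks. Itga6, of a laminin receptor subunit, had a median of 6078 in the vascular-rich congenic FVB cells and 45.3 in rd1 at P13, a difference of -2.60 or below. In all, 1 of 15 was higher and 3 lower at 8 weeks, beside 6.17% and 5.12% of all genes. At 25 weeks 3 were higher and 2 lower, beside 7.9% and 3.7%. In rd1 1 was higher and 3 lower at 5 weeks, beside 6.35% and 4.25%, and 0 and 3 at P13, beside 4.79% and 6.41%.

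Of 6 filament chaperones, Cryab, the small heat shock protein that binds GFAP and vimentin, had medians of 26203 in adult WT, 48358 and 40800 in Rhod-ko, and 40292 in rd1 at 5 weeks, differences of 0.88, 0.64 and 0.34 that did not reach 2-fold. At P13 the Cryab median was 26898 in rd1, with 3 of 5 cells on, and 77.8 in congenic FVB, with 1 of 3 on. Hspb1, another small heat shock gene, had a median of 5394 in congenic FVB and 161 in rd1 at P13. All 3 congenic cells and 2 of the 5 rd1 cells were vascular-rich, so these P13 differences cannot be assigned to genotype. The co-chaperone Dnajb6 was higher by 1.14 or more in Rhod-ko at 25 weeks.

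Of 11 kinases and phosphatases that act on filament proteins, the phosphatase gene Ppp1ca had an adult WT median of 70 and was higher by at least 3.63, 3.27 and 3.24 in Rhod-ko at 8 and 25 weeks and in rd1 at 5 weeks. Ppp2ca went the other way, by -3.50, -2.21 and -1.29, and the kinase gene Pak2 differed by -2.43 or below in Rhod-ko at 8 weeks. Ppp1ca did not differ by 2-fold at P13 (-0.23). All 3 congenic FVB cells, which are wildtype for Pde6b but vascular-rich, had it on, at 9907 to 20291. Low signals in every cell were thus seen in adult WT alone, where no cell was on.

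Among 15 regulators of Gfap transcription, 1 was higher and 7 lower in Rhod-ko at 8 weeks, beside 6.17% and 5.12% of all genes. At 25 weeks 5 were higher and 4 lower, beside 7.9% and 3.7%. In rd1 4 were higher and 5 lower at 5 weeks, beside 6.35% and 4.25%, and 3 and 0 at P13, beside 4.79% and 6.41%. Both medians were under the floor for 2 or 3 of the 15, against 13206 to 14632 of all 18194 genes. More of the regulators could therefore be counted. The immediate early gene Fos had a median of 19402 among adult WT cells, 56.5 and 29154 in Rhod-ko at 8 and 25 weeks, and 12205 in rd1 at 5 weeks. At P13 the Fos median was 563 in the vascular-rich congenic FVB cells and 5480 in rd1. A relation between Fos and Gfap was not tested. Lhx2, a homeobox gene of MGCs, was higher by at least 2.45 in Rhod-ko at 25 weeks, 3.96 in rd1 at 5 weeks and 2.20 in rd1 at P13, against at least 0.28 in Rhod-ko at 8 weeks. Nfib, a nuclear factor of glial genes, was higher than in adult WT by at least 1.08, 2.45 and 3.10 and differed by -0.21 at P13. These are differences of medians. Adult WT cells reached 29139 for Lhx2 and 24242 for Nfib, with 2 cells on for each, so they overlapped with each mutant group compared with them. Lhx2 also belongs to the 22 MGC markers, of which 3 to 8 were on in the congenic FVB cells.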

How the data were processed

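Single cells were lysed, their RNA was copied from an oligo dT primer and the cDNA was amplified by 35 cycles of PCR and hybridized to Affymetrix mouse genome arrays by the authors. The deposited values are signal intensities that the authors computed with MAS 5.0 on a linear scale, and their 2% trimmed mean was checked to be 500 on all 28 arrays. The MAS software build was not given in the sources used here.

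Of 45101 probe sets, 34958 carry 1 gene symbol in the array annotation, 932 several and 9211 none, and only the first kind was used. Per cell, a gene was read from whichever of its probe sets was highest, following the study's methods, and each probe set of the members was also read alone. Correlations used log2 signals floored at 500. Named genes are the members, the 5 genes most like each member, and up to 3 genes of each filament list with the largest difference. The members and lists were chosen with earlier results of these data known. Marker and filament lists were written from general knowledge, and genes without a single-symbol probe set were not analysed here. Start windows and positions came from RefSeq (GRCm38.p6).

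Alternatives were group means, floors of 500 and 2000, other thresholds for on, quantile normalization, a common 90th percentile, a single probe set for each gene, arrays A5 and A6 kept apart, another control, and leaving out cells. The steps, run in Python 3.11.15 with NumPy 2.4.6, pandas 2.3.3, matplotlib 3.10.9 and SciPy 1.17.1, were tested on simulated data.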

Additional observations from a re-analysis of the deposited data

Results flagged for a closer look

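In 6 cases a single cell stood far from the others of its condition on the log2 scale floored at 1000. For this, 25 groups of 4 or 5 cells were looked at. In every case but Rhod-ko 25 weeks A3 for Gfap, all other cells of the group lay at the floor. Any signal above 1000 then stands out, so the count of cases cannot be set against chance. For Gfap these cells were adult WT MG16, at 4046.8 by 1440142_s_at alone, and Rhod-ko 25 weeks A3, at 29918 by 1426508_at. For Nes they were Rhod-ko 8 weeks cell 8 at 2171.4 and rd1 P13 cell A1, which is vascular-rich, at 7979.9. For Plec it was adult WT MG3 at 1191.7, which is not on, and for Synm Rhod-ko 8 weeks cell 1 at 2607.4.

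Probe set 1452178_at, annotated to both Parp10 and Plec and therefore left out of the comparisons, read 2537.7 and 2852.1 in Rhod-ko 8 weeks cells 2 and 3 and 8358.5 in rd1 P13 cell B1, above all adult WT and congenic FVB cells. Its gene cannot be told from the annotation, and Plec was on in those 3 cells by 1419835_s_at.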

How the results depend on the processing

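Of the differences of members, 119 of 130 under other settings moved by less than the spread between cells, 10 moved further and 1 changed sign: Plec in rd1 at 5 weeks was 1.10 lower (-1.10) with congenic FVB as the control, which also gave 1 member higher and 3 lower. Differences with both medians under the floor were 0 and mostly stayed 0, which adds to the 119. Counts of members changed as follows. Across settings, quantile normalization gave 1 lower in Rhod-ko at 8 weeks, where Vim differed by -1.05, and scaling to the 90th percentile 1 lower at 25 weeks, where Vim differed by -1.17. With 1 probe set per gene 1 was lower in rd1 at P13, with A5 and A6 apart 1 was higher in rd1 at 5 weeks, and a floor of 2000 left 0 higher in Rhod-ko at 25 weeks and 1 lower at P13. At a threshold of 10000 Gfap and Plec were both on in 4 cells.

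Reading a single probe set was chosen after seeing the data. By Gfap 1440142_s_at alone Gfap was on in 2 cells, 1 with Plec, and the members higher were 1 in Rhod-ko at 8 weeks, 1 in rd1 at 5 weeks and 0 at P13. By Plec 1437554_at alone they were 1 in Rhod-ko at 8 weeks, 0 at 25 weeks and 1 in rd1 at 5 weeks, with 0 cells having Gfap and Plec, and by Plec 1434610_at alone 0 at 25 weeks. By Nes 1418289_at or 1453997_a_at, or by either Synm probe set alone, 1 member was lower at P13, and by Vim 1450641_at alone 1 was lower in Rhod-ko at 8 weeks.

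Leaving out 1 cell gave 1 to 2 members higher in rd1 at 5 weeks (1 without A1 or B1) and, at P13, 1 to 2 higher (2 without congenic A3 or A5) and 1 to 3 lower (1 without congenic A3, 3 without rd1 A1 or B1, where Plec turned from 0.30 to -1.18). Without the vascular-rich cells the P13 comparison has no control cell and no value. No paired analysis was possible because conditions were not tested and cell numbers name no shared animal.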
